A study of Mus musculus with 69 samples.

Results

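The circadian clock genes Arntl, Clock, Per1, Per2, Per3, Cry1, Cry2, Nr1d1, Nr1d2 and Dbp were followed across the pituitary, hypothalamus and ovary of mice in which the transcription factor Zeb1 can no longer be repressed by the microRNAs miR-200a and miR-200b. These 10 genes were taken by symbol from the 55964 gene IDs of the deposited count tables, and all 10 were present and passed the filter on low counts in every tissue. RNA-seq libraries came from wild-type (WT) females, from heterozygotes for the Zeb1_200 allele (200H) and from homozygotes (200M), all on a C57BL/6J background and all staged to proestrus by vaginal cytology. In the Zeb1_200 allele the binding sites for both microRNA families are mutated in all cells that carry it, and the line was founded from a pair of clonal embryonic stem cell lines. One cohort was young virgin females of 8 to 12 weeks, and the other was older females of 28 to 36 weeks that had completed a breeding trial. Each of the 18 groups had 4 libraries, except WT in the young pituitary and 200M in the older pituitary and older hypothalamus, which had 3, so that 69 libraries were analysed. The study's methods give replicates as samples from different mice. The labels name neither animals nor litters, and p-values measure the spread between these libraries. One WT library of the young pituitary has a number in its count column that no sample title carries, and it is called replicate u.

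The molecular clock is a feedback loop that runs in nearly every cell. CLOCK and ARNTL (also called BMAL1) bind E-box elements and switch on the Per, Cry, Nr1d and Dbp genes, the PER and CRY proteins then inhibit CLOCK and ARNTL, and the NR1D proteins (REV-ERBs) repress Arntl. As a result Arntl and Dbp peak at nearly opposite times of the day in most tissues, and the level of one against the other in a single sample depends on when it was taken. Per1 is also induced directly by cAMP, calcium and glucocorticoid signals, much like an immediate early gene. In the mouse genome (GRCm38) Per1 lies at chr11:69095217-69109960 on the plus strand, Clock at chr5:76209868-76304792 on the minus strand and Cry1 at chr10:85131700-85185064 on the minus strand, and the values are sums over their exons.

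The time of day at which tissues were collected is given neither in the labels nor in the methods, which state only the light-dark schedule and that mice were killed when first found in proestrus. Whether collection time differed between genotypes could therefore only be approached from the clock genes themselves, and a difference in time and a difference in genotype cannot be told apart within a group. Zeb1 itself was checked first. It was 96.6 ± 1.68 CPM (counts scaled to 1000000 a library, mean ± SD, n = 3) in the young WT pituitary, 130 ± 3.60 (n = 4) in 200H and 137 ± 4.12 (n = 4) in 200M, with no overlap between WT and either mutant. The order was the same in the older pituitary, 58.6 ± 3.10 in WT (n = 4), 73.7 ± 2.71 in 200H (n = 4) and 85.7 ± 6.49 in 200M (n = 3). In the hypothalamus the Zeb1 values of 200M lay below those of WT without overlap. They were 177.3 to 210.8 CPM in 200M against 218.6 to 226.0 in WT in the young, and 109.4 to 119.3 against 122.0 to 142.1 CPM in the older. In 200M against WT, edgeR called 0 genes lower in the older hypothalamus, and DESeq2 called 0 genes in the young one. The share of all genes without such overlap was not computed. The hypothalamus of 200H overlapped WT, as did the ovary of both mutants. Library totals ran from 3321845 to 5143128 counts in the young hypothalamus and from 4527753 to 14655095 counts in the other sets. The summed level of 8 pituitary markers was 67930 to 322200 CPM in the pituitary libraries and at most 168.2 CPM elsewhere, and the hypothalamic and ovarian marker lists were likewise highest in their own tissue. The pituitary markers also moved with genotype: their sum was 163900 to 187200 CPM in young WT pituitary, 69950 to 98270 in 200H and 67930 to 87780 in 200M, and 290000 to 322200, 151200 to 226700 and 162100 to 211100 CPM in the older one, without overlap between WT and either mutant. Most of this was Prl (prolactin), at 142300 CPM on average in young WT and 46240 in 200M, whereas Gh (growth hormone) was 28150 and 29920 CPM. The part of such shifts in the pituitary results on clock genes was not tested. One library stood apart in the clock genes, 200H replicate 3 of the young pituitary. In the older ovary the summed level of 4 fat and oviduct markers ran from 41.2 to 3340 CPM, with libraries above 3000 CPM in both mutant genotypes and a highest value of 771.1 CPM in WT.

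Some of the sequences that tie these genes to one another are short elements near their starts. The RefSeq promoter table (GRCm38.p6) was searched on both strands from 250 bases before to 50 bases after each start, and all of the genes but Per2 had an entry there. The E-box CACGTG was found in 7.15% of all 32851 promoters, the E-box-like CACGTT in 4.68%, the D-box TTATGTAA (the site read by DBP, TEF and HLF) in 0.938% and AGGTCA in 16.3%. AGGTCA is only part of the element that ROR and REV-ERB factors read, and the rest of that element was not searched. The E-box was found in Per1 and Cry1, the E-box-like letters in Cry1, Cry2 and Nr1d1, a pair of D-boxes in Per3, and AGGTCA in Per1, Nr1d2, Clock and Arntl. The window of Dbp held none of them, and sequence outside the windows was not searched. The stretches below are shown because they hold the elements of Per1, whose level differed between genotypes, and of Per3 and Cry1. They are written 5′ to 3′ on the strand of the gene, with the elements in capitals (TGACCT and AACGTG are AGGTCA and CACGTT read on the other strand).
Per1, chr11:69098771-69098829, plus strand, bases -178 to -120 from the start: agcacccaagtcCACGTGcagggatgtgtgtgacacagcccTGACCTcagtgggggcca
Per3, chr4:151044804-151044882, minus strand, bases -217 to -139: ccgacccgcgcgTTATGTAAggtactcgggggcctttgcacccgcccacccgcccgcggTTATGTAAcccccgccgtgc
Cry1, chr10:85185097-85185145, minus strand, bases -91 to -43: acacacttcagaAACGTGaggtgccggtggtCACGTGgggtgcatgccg
The E-box CACCTG, to which ZEB1 itself binds, was in 20.2% of all promoters and among the clock genes only in the 300 bases around the downstream start of Per1, with its first base 42 bases after that start. The cAMP element TGACGTCA (1.79% of promoters) was in none of the windows searched.

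The microRNAs that the Zeb1_200 allele escapes share a seed (bases 2 to 8, in capitals), in one of 2 forms, and are printed because a match to the seed is what the mutated sites have lost.
mmu-miR-200a-3p: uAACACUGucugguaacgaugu
mmu-miR-200b-3p: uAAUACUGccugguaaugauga
Of the clock genes, 4 hold a match to bases 2 to 8 of either form in their longest annotated 3′ UTR (GENCODE M21), against 25.8% of 21010 genes. That share was not matched for length: the median 3′ UTR of all these genes was 960 bases, against 2631 in Nr1d2, 612 in Cry1 and 507 in Arntl. Clock had 3 matches in a 3′ UTR of 6831 bases, and Arntl, Cry1 and Nr1d2 had 1 each, all to the miR-200a form except 1 in Clock. In none of the 6 did an A follow the match, the context that marks the strongest type of site. The sites of Clock and Cry1 are shown, the genes whose levels differed in the older pituitary.
Clock, chr5:76214298-76214322, minus strand: acacgactcCAGTATTctgaagaaa
Clock, chr5:76216371-76216395, minus strand: gagcactaaCAGTGTTggtagcttt
Clock, chr5:76212237-76212261, minus strand: tatttaaaaCAGTGTTgaacagctc
Cry1, chr10:85131887-85131911, minus strand: tccagacatCAGTGTTtgatctaat

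In WT tissues the repressor Nr1d1 was at or near the top of the 10 genes, and Arntl was lowest in the young hypothalamus and ovary but sixth in the young pituitary. Divided by exon length, the levels in the young WT pituitary were 46.0 ± 20.5 CPM per kb for Nr1d1 (SD, n = 3), 34.3 ± 1.83 for Per1 and 30.3 ± 7.72 for Nr1d2, each within the larger SD of its neighbour. They were followed by Clock (14.5 ± 1.57), Per3 (10.3 ± 2.71), Arntl (6.23 ± 1.23), Per2 (5.21 ± 1.67), Cry1 (4.92 ± 1.16), Cry2 (4.75 ± 0.469) and Dbp (2.86 ± 2.23). From Arntl down, each gene differed from the next by less than the larger of their SDs. In the young WT hypothalamus Nr1d1 (47.1 ± 4.80 CPM per kb, n = 4) and Nr1d2 (28.1 ± 1.09) led and Arntl had the lowest level (3.40 ± 0.176). In the young WT ovary Nr1d1 was 42.3 ± 11.5 and Arntl 3.03 ± 0.575 CPM per kb (n = 4). The pituitary stood out by Per1. Its log2 difference of young WT pituitary against hypothalamus was 1.115 ± 0.08 (SE; edgeR quasi-likelihood test, adjusted p = 9.86e-12), and it was lower in the ovary than in the pituitary (log2 difference -1.39 ± 0.07, adjusted p = 1.27e-10).

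Tissue differences of the WT clock genes were common, as they were for all genes. In the young WT pituitary 6 of 10 clock genes differed from the hypothalamus at an adjusted p under 0.05, where 72.2% of all genes tested did. Arntl (log2 difference 0.79), Per1 and Per3 (0.46) were higher, and Per2 (-0.98), Cry2 (-0.54) and Dbp (-1.06) were lower. The young ovary was lower than the hypothalamus in 9 of 10 (76.7% of all genes differed), from -0.26 for Clock to -1.16 for Cry2, and lower than the pituitary in 5 of 10 (68.3% of all genes). In the older cohort 4 of 10 differed between WT pituitary and hypothalamus (76.8% of all genes): Per1 (1.32 ± 0.25), Per3 (1.10 ± 0.13) and Nr1d1 (0.42 ± 0.13) were higher in the pituitary, and Dbp (-0.46 ± 0.17) was lower. These counts stand against high backgrounds and mark nothing particular to the clock. The older libraries do not keep strand. Of the exon bases of Dbp 18.01% are shared with Sphk2, and of those of Nr1d1 8.55% with Thra, both on the other strand. Older reads in the shared bases could not be assigned by strand, and their part in the older values of this pair was not tested. A list of 8 genes of the suprachiasmatic nucleus, the seat of the central clock, did not mark the hypothalamus in the young cohort: its sum was 143.0 CPM in WT hypothalamus and 210.0 CPM in WT pituitary, where Six6 alone gave 193.9 CPM. In the older cohort the sums were 368.7 and 171.3 CPM.

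In the young pituitary Per1, a core inhibitor of the clock that also answers acute signals, was lower in 200M. Its CPM was 197.1, 201.0 and 181.5 in the WT libraries and 133.0, 147.3, 128.3 and 140.6 in 200M. All 4 of the 200M libraries lay below all 3 of the WT libraries. The log2 difference was -0.48 ± 0.07 (SE), 1.39-fold lower, with an adjusted p of 0.000126 (edgeR quasi-likelihood test over 18199 genes). The heterozygotes had 136.0, 179.9, 169.0 and 173.3 CPM, each below the lowest WT library. The first lay inside the 200M range and the others above it. The log2 difference of the heterozygotes from WT of -0.22 ± 0.09 missed the threshold (adjusted p = 0.149). Per1 was the 1 clock gene of 10 called in 200M against WT, where 21.5% of all genes were called, so that 1 of 10 is no more than the background. In bulk tissue, fewer cells of a type and less RNA per cell cannot be told apart. Leaving out any 1 of the 7 libraries kept Per1 called, with log2 differences of -0.52 to -0.44.

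**Figure D1:**
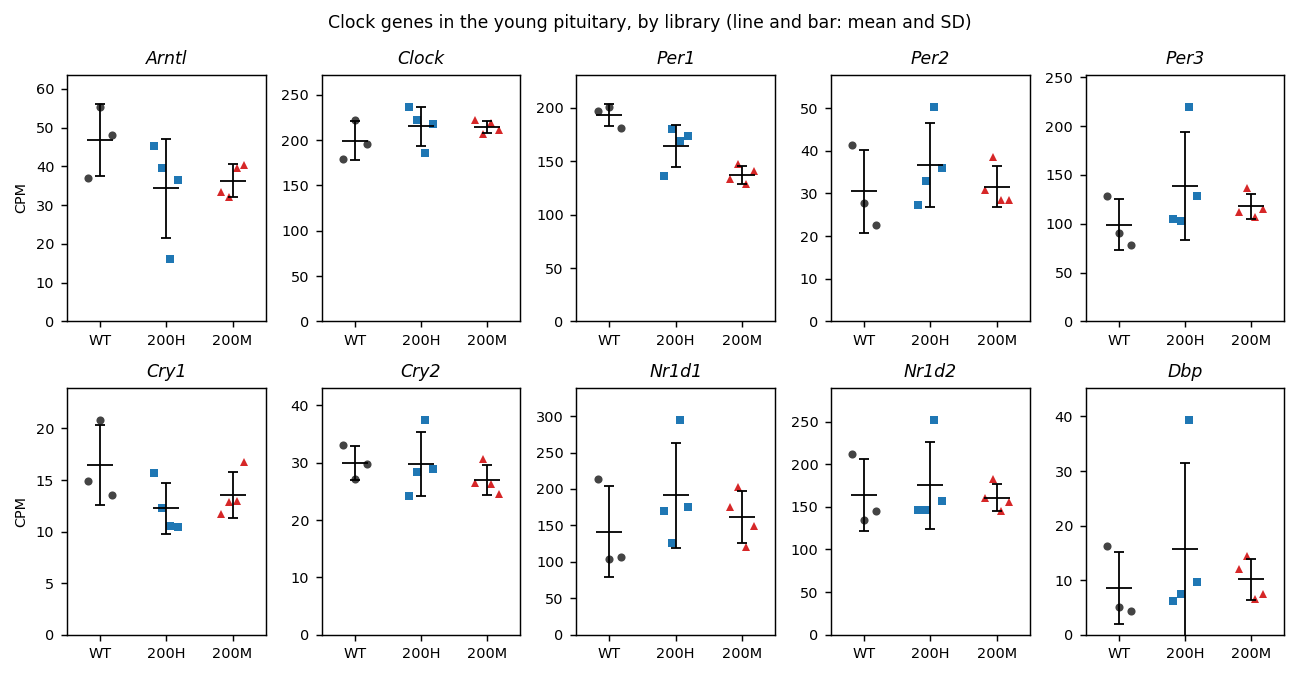
CPM (linear axes from 0) of the 10 clock genes in each library of the young pituitary, for WT (circles, n = 3), 200H (squares, n = 4) and 200M (triangles, n = 4), with the mean and SD. The Per1 panel shows all 200M libraries (128.3 to 147.3 CPM) below all WT libraries (181.5 to 201.0 CPM), and the Dbp panel shows 1 library of 200H at 39.3 CPM, far above the other 10 (the lower end of its SD bar is cut at 0).

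Other genes that answer acute stimuli moved in the same libraries. Of 10 immediate early genes, 9 were tested in the young pituitary and 4 were called lower in 200M than in WT, where 21.5% of all genes were called: Fosb (log2 difference -1.75 ± 0.28), Junb (-1.97 ± 0.48), Nr4a1 (-1.95 ± 0.40) and Btg2 (-1.41 ± 0.37). Their summed level was 719.1, 3144 and 711.7 CPM in the WT libraries 1, 2 and u and 268.8, 377.6, 257.5 and 1270 CPM in the 200M libraries 1 to 4. The groups overlapped, since 200M replicate 4 was above WT replicates 1 and u. In young 200H against WT 1 of the 9 immediate early genes was called, also lower (12.3% of all genes). Of 8 glucocorticoid-induced genes 3 were called higher in young 200M, again beside 21.5% of all genes (Fkbp5 0.95 ± 0.17, Zbtb16 0.86 ± 0.15 and Sult1a1 0.75 ± 0.22). The other 5 did not pass, the list running from -0.11 to 0.95. In the older pituitary the calls of that list were lower, 1 of 8 in 200M (Sgk1, with 21.4% of all genes called) and 2 of 8 in 200H (Sgk1 and Mt1, with 12.2% of all genes called). The part of acute induction or of glucocorticoids in the Per1 difference was not tested.

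Among the other clock genes of the young pituitary, the activator Arntl had 37.1, 55.4 and 48.1 CPM in WT and 33.4, 32.2, 39.6 and 40.4 CPM in 200M. The ranges overlapped by the first WT library alone. The log2 difference was -0.35 ± 0.12 (95% interval -0.60 to -0.11), and its adjusted p of 0.0578 was just short of the threshold. Dbp, an output gene of the loop, had 16.2, 5.04 and 4.39 CPM in WT against 12.1, 14.4, 6.59 and 7.49 CPM in 200M, a log2 difference of 0.26 ± 0.38. The REV-ERB gene Nr1d1 had 214.2, 104.2 and 106.2 CPM in WT against 175.7, 203.3, 120.0 and 149.4 CPM in 200M. In both genes WT replicate 1 lay above all 200M libraries and the other two WT libraries lay below them.

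That first WT library decided how many clock genes were called. Without it 5 of 10 differed between 200M and WT: Dbp (log2 difference 1.13, adjusted p = 0.0261), Nr1d1 (0.64, 0.0134) and Per3 (0.50, 0.00564) were higher, and Arntl (-0.50, 0.0088) and Per1 (-0.46, 0.00113) were lower. Without any other single library the count was 1 or 2. For 200H against WT none of 10 was called (12.3% of all genes were, and 2 clock genes had an unadjusted p under 0.05), and DESeq2 called none either. The largest log2 differences there were 0.85 ± 0.61 for Dbp and 0.50 ± 0.24 for Per3. Without 200H replicate 3 they were -0.15 and 0.19, so that the direction of Dbp turned. With both WT replicate 1 and 200H replicate 3 left out, a choice made after seeing the data, 2 were called in 200H, Nr1d1 (0.58 ± 0.12, adjusted p = 0.0102) and Per3 (0.42 ± 0.11, 0.0355). Between 200M and 200H none of 10 was called (0.0383% of all genes), with 1 at an unadjusted p under 0.05 and none in DESeq2.

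Of the older pituitary, the activator Clock was 87.8, 67.1, 82.7 and 87.7 CPM in WT and 118.2, 94.4 and 102.5 CPM in 200M, with no overlap. Its log2 difference was 0.37 ± 0.11, 1.29-fold higher, with an adjusted p of 0.0371. It was the 1 clock gene of 10 called in 200M against WT (21.4% of all genes). The 200H libraries had 100.7, 93.5, 84.4 and 101.2 CPM, overlapping WT, and a log2 difference of 0.23 ± 0.10 (adjusted p = 0.175). The Clock call did not survive every omission: it held in 3 of 7 fits that left out 1 library, and was lost without WT replicate 2, WT replicate 3, 200M replicate 1 or 200M replicate 3, with adjusted p up to 0.173 and log2 differences of 0.27 to 0.45.

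The inhibitor Cry1 was lower in the older 200H pituitary. It had 23.9, 24.1, 19.0 and 24.1 CPM in WT and 18.7, 15.99, 16.2 and 16.4 CPM in 200H, every heterozygous library below every WT library. The log2 difference was -0.44 ± 0.12, 1.36-fold lower (adjusted p = 0.0265), and Cry1 was the 1 clock gene of 10 called (12.2% of all genes). In 200M it had 23.8, 17.6 and 17.8 CPM, overlapping WT, with a log2 difference of -0.23 ± 0.14 (adjusted p = 0.29). The call held in 2 of 8 fits that left out 1 library and was lost without WT replicate 1, 2 or 4 or 200H replicate 2, 3 or 4, where the adjusted p rose to at most 0.0797.

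Per1 in the older pituitary was far more scattered than in the young. It had 129.5, 335.5, 304.3 and 172.6 CPM in WT, 130.9, 136.2, 175.0 and 290.0 CPM in 200H and 165.6, 171.9 and 120.5 CPM in 200M. The groups overlapped, and the log2 difference of 200M from WT was -0.62 ± 0.27 (adjusted p = 0.125). The summed immediate early genes were 292.6, 4177, 2019 and 337.2 CPM in the same WT libraries, 1935, 307.8, 2467 and 2594 CPM in 200H and 897.8, 309.8 and 260.8 CPM in 200M. The WT libraries with the highest Per1 were thus also those with the highest immediate early genes, and their part in the Per1 spread was not tested. Without WT replicate 1 the difference was -0.82 (adjusted p = 0.0243), and Per1, Clock and Cry2 (-0.36, adjusted p = 0.0436) were called. Without WT replicate 2 the Per1 difference was -0.39 (adjusted p = 0.327), and without WT replicate 3 or 200M replicate 3 it was -0.48, so its size rested on single libraries. Between 200M and 200H none of 10 was called (0.121% of all genes), with 0 at an unadjusted p under 0.05 and none in DESeq2.

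**Figure D2:**
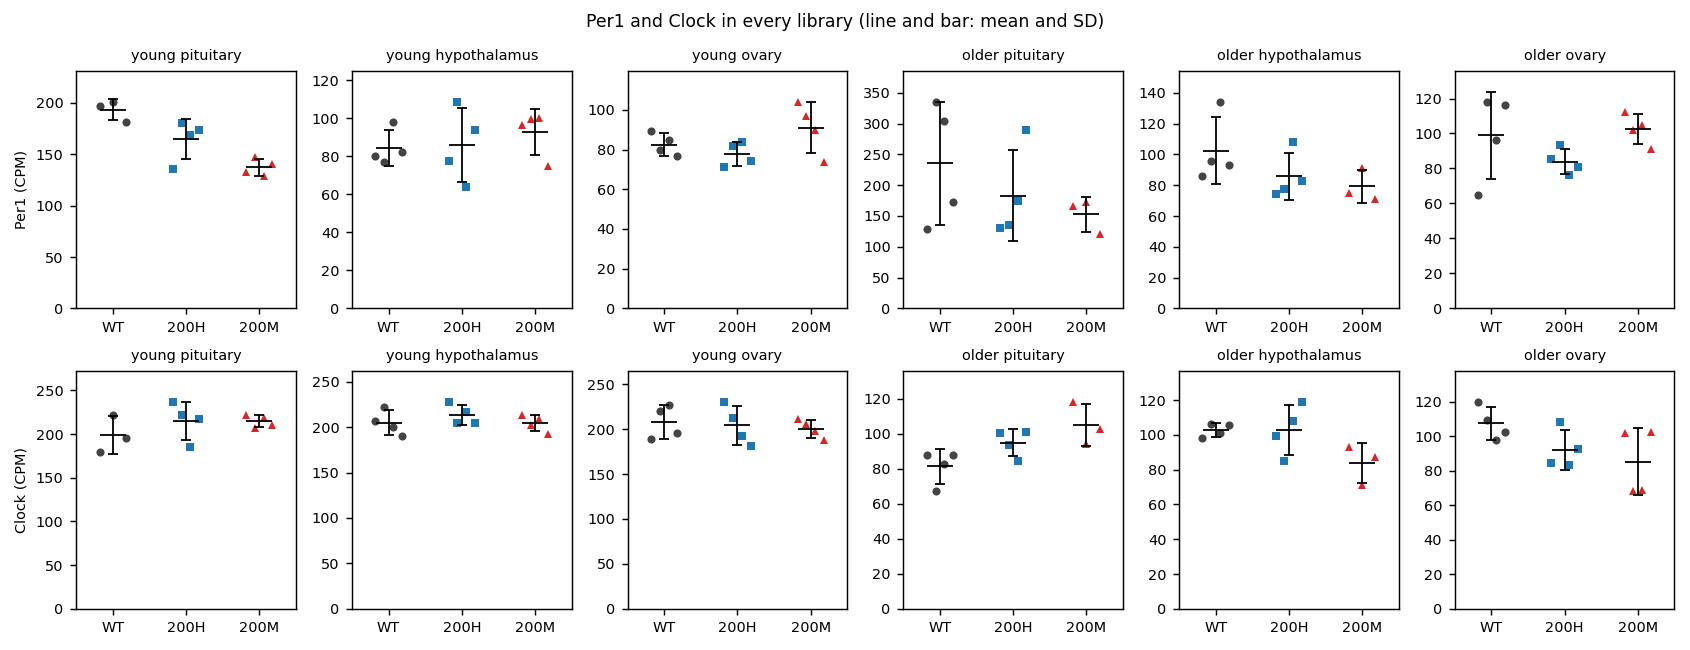
CPM (linear axes from 0) of Per1 (top) and Clock (bottom) in every library of the 6 tissue and cohort sets, by genotype, with the mean and SD of 3 or 4 libraries. Per1 falls from WT to 200M without overlap in the young pituitary, and Clock is higher in 200M (94.4 to 118.2 CPM) than in WT (67.1 to 87.8 CPM) in the older pituitary.

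In the hypothalamus no clock gene was called between genotypes by edgeR or DESeq2. In the young cohort the log2 differences from WT ran from -0.06 (Nr1d2) to 0.18 (Per3) in 200M and from -0.17 (Dbp) to 0.13 (Per3) in 200H, and none had an unadjusted p under 0.05 in edgeR. Of all genes tested there, 0.0200% were called in 200M against WT, 0.0202% in 200H against WT and 0% between the mutants (682 genes at an unadjusted p under 0.05, none in DESeq2). In the older hypothalamus 5 clock genes were lower in 200M at an unadjusted p under 0.05 but none after adjustment, where 2904 of all 16067 genes had such a p: Clock (-0.30 ± 0.10), Nr1d1 (-0.31 ± 0.12), Nr1d2 (-0.28 ± 0.10), Per1 (-0.38 ± 0.15) and Per2 (-0.31 ± 0.13), with adjusted p of 0.168 to 0.245. Clock had 98.2, 106.1, 101.1 and 105.9 CPM in WT against 93.3, 71.3 and 87.6 CPM in 200M, so that its groups did not overlap. Between older 200M and 200H, Nr1d1, Nr1d2 and Clock had an unadjusted p under 0.05, and between 200H and WT none did. The background in edgeR was 0.00622% of genes called in 200M against WT, 0% in 200H against WT (445 genes at an unadjusted p under 0.05) and 0% between the mutants (3144 genes). It depended on the tool, since DESeq2 called 619, 5 and 637 genes in these comparisons where edgeR called 1, 0 and 0. The median log2 difference of the 10 clock genes in older 200M was -0.25, where that of all genes tested was 0.02.

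The ovary gave no call among the clock genes either, in either cohort or any pair of genotypes. The background was 2.58% of genes in young 200M against WT, 0.00510% in young 200H against WT, 0% between the young mutants (648 genes at an unadjusted p under 0.05, none in DESeq2), 2.71% in older 200M against WT, 0% in older 200H against WT (1160 genes at an unadjusted p under 0.05, 21 in DESeq2), and 1.61% between the older mutants. In edgeR no clock gene of the young ovary had an unadjusted p under 0.05 against WT, and DESeq2 called none in either cohort. In the older ovary Per2 had one in 200M, Nr1d1 and Dbp in 200H, and Per1 and Per2 between the mutants, where 2944 of 17792, 1160 of 17605 and 2320 of 17855 genes in all had one. Against WT, the difference of the greatest size was that of Per2 in the older 200M ovary, with 39.0, 31.7, 50.4 and 53.0 CPM in WT and 56.5, 98.3, 65.1 and 48.4 CPM in 200M (log2 difference 0.62 ± 0.24, adjusted p = 0.236). The older ovary is also where the power was lowest and where the fat and oviduct markers varied most, and their part in its values was not tested. In simulated counts of the same depth and spread, 21% of genes changed by 1 on the log2 scale were recovered in the older ovary, against 80% to 90% in the other tissues.

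**Figure D3:**
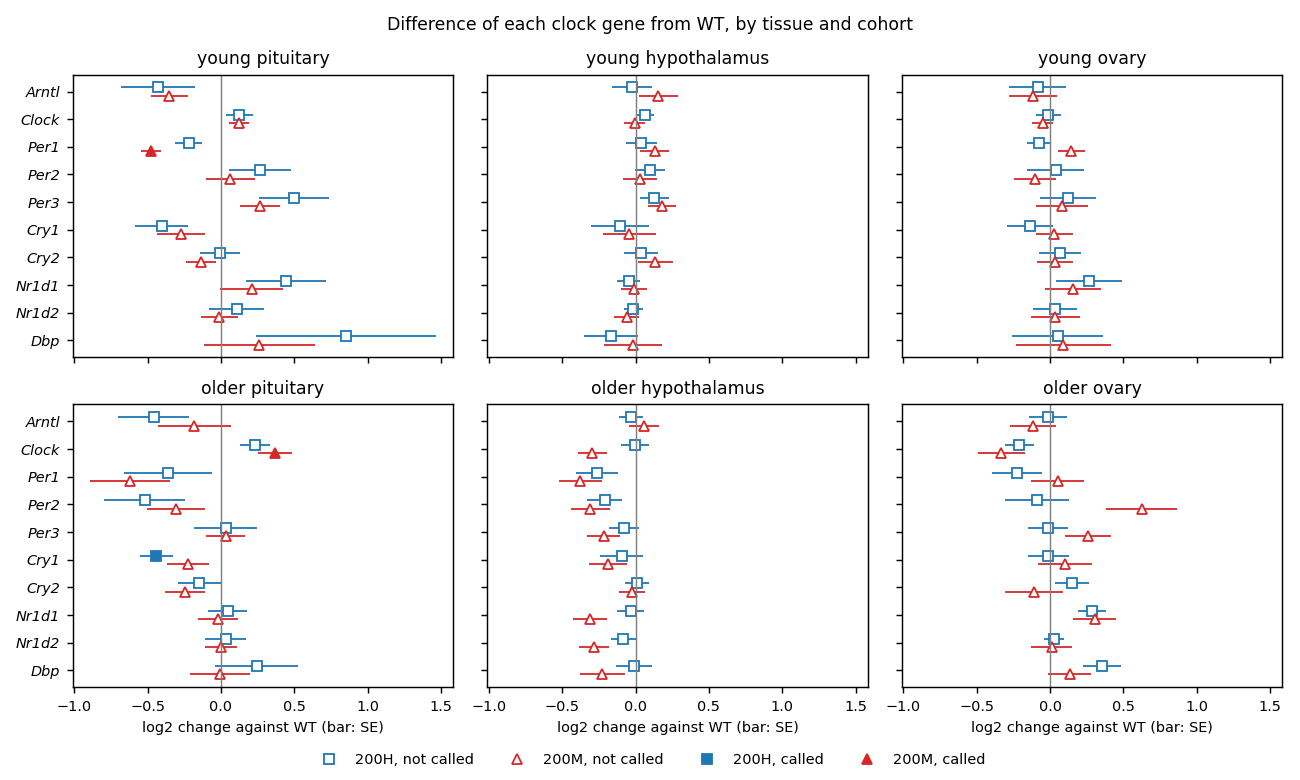
Log2 difference from WT with its SE (horizontal bars) of each clock gene in 200H (squares) and 200M (triangles), by tissue and cohort. Filled symbols passed an adjusted p of 0.05, which only Per1 in the young 200M pituitary, Clock in the older 200M pituitary and Cry1 in the older 200H pituitary did.

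The pituitary effects were set against the other tissues by an interaction term. No term for animals was fitted, so tissues that may come from the same mouse were taken as independent. The 200M effect on Per1 in the young pituitary differed from that in the hypothalamus by -0.61 ± 0.13 on the log2 scale (adjusted p = 0.00227) and from that in the ovary by -0.62 ± 0.13 (adjusted p = 0.00286). Per1 was the 1 clock gene of 10 called in each, where 10.5% and 10.1% of all genes were. Per1 in the other young tissues had its mean on the other side, with log2 differences of 0.13 ± 0.10 in the hypothalamus and 0.15 ± 0.09 in the ovary, neither called. In the older cohort the effect on Clock differed between pituitary and hypothalamus by 0.67 ± 0.15 (adjusted p = 0.00634), the 1 gene of 10 (17.5% of all genes). Against the ovary the difference for Clock was 0.72 with an adjusted p of 0.0622, and none of 10 was called (5.77% of all genes) by edgeR, with Clock and Per2 at an unadjusted p under 0.05, whereas DESeq2 called 1, Clock. Between cohorts the 200M effect differed for none of 10 clock genes in any tissue, where 0.0273% of genes were called in the pituitary, 0.154% in the hypothalamus and 0.197% in the ovary. DESeq2 called no clock gene there either, and at an unadjusted p under 0.05 there were 3 in the hypothalamus (Per1, Per3 and Clock), 1 in the ovary (Per2) and 0 in the pituitary, against 1740 of 16831, 2619 of 21786 and 1257 of 18344 genes in all. The cohorts also differ in library type, breeding and housing, and age cannot be told apart from these. Power was low for interactions: in simulated counts the young pituitary minus hypothalamus fit recovered 8% of changes of 0.5 on the log2 scale and 59% of changes of 1. The interactions between cohorts were not simulated.

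Within genotypes, Arntl and the genes it drives ran against each other from library to library in the pituitary and the young ovary. In the young pituitary Arntl was lowest (16.1 CPM) in the library with the highest Dbp (39.3 CPM), Nr1d1 (294.6 CPM), Per3 (219.8 CPM) and Per2 (50.3 CPM), which was 200H replicate 3. After subtraction of group means on the log2 scale, Arntl and Dbp had r = -0.945 and rho = -0.80 over 11 libraries (100000 within-group permutations, two-sided p = 0.00162 and 0.0112, Benjamini-Hochberg adjusted over 12 relations 0.0194 and 0.0641). Without 200H replicate 3 and WT replicate 1, r was -0.865 (adjusted p = 0.248). In the young ovary r was -0.768 over 12 libraries (permutation p = 0.00963, adjusted 0.0334) with rho = -0.573 (adjusted p = 0.172), and r = -0.596 without the same numbers 200H replicate 3 and WT replicate 1 (adjusted p = 0.40). In the older pituitary r was -0.784 over 11 libraries (permutation p = 0.0136, adjusted 0.0334) with rho = -0.764 (adjusted p = 0.0641), and -0.663 without 200H replicate 2 and WT replicate 4 (adjusted p = 0.325). The significance of each thus rested on the 2 libraries farthest from the median, while the sign did not.

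The same relation with Nr1d1 was r = -0.814 in the young pituitary (permutation p = 0.0086, adjusted 0.0334; rho = -0.764, adjusted p = 0.0641) and r = -0.796 in the young ovary (permutation p = 0.0139, adjusted 0.0334; rho = -0.483, adjusted p = 0.304). Both fell short without the 2 farthest libraries, at r of -0.602 and -0.532 (adjusted p = 0.40 for each). In the older pituitary it was -0.578 (permutation p = 0.0783, adjusted 0.15). In the hypothalamus of either cohort and in the older ovary Arntl had no such relation, with r of -0.209 to 0.244 for Dbp and of -0.166 to 0.647 for Nr1d1 (adjusted permutation p of at least 0.15). There Dbp spread over a narrow range, 11.04 to 23.4 CPM in the young hypothalamus, 40.3 to 69.7 CPM in the older hypothalamus and 64.7 to 119.1 CPM in the older ovary.

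**Figure D4:**
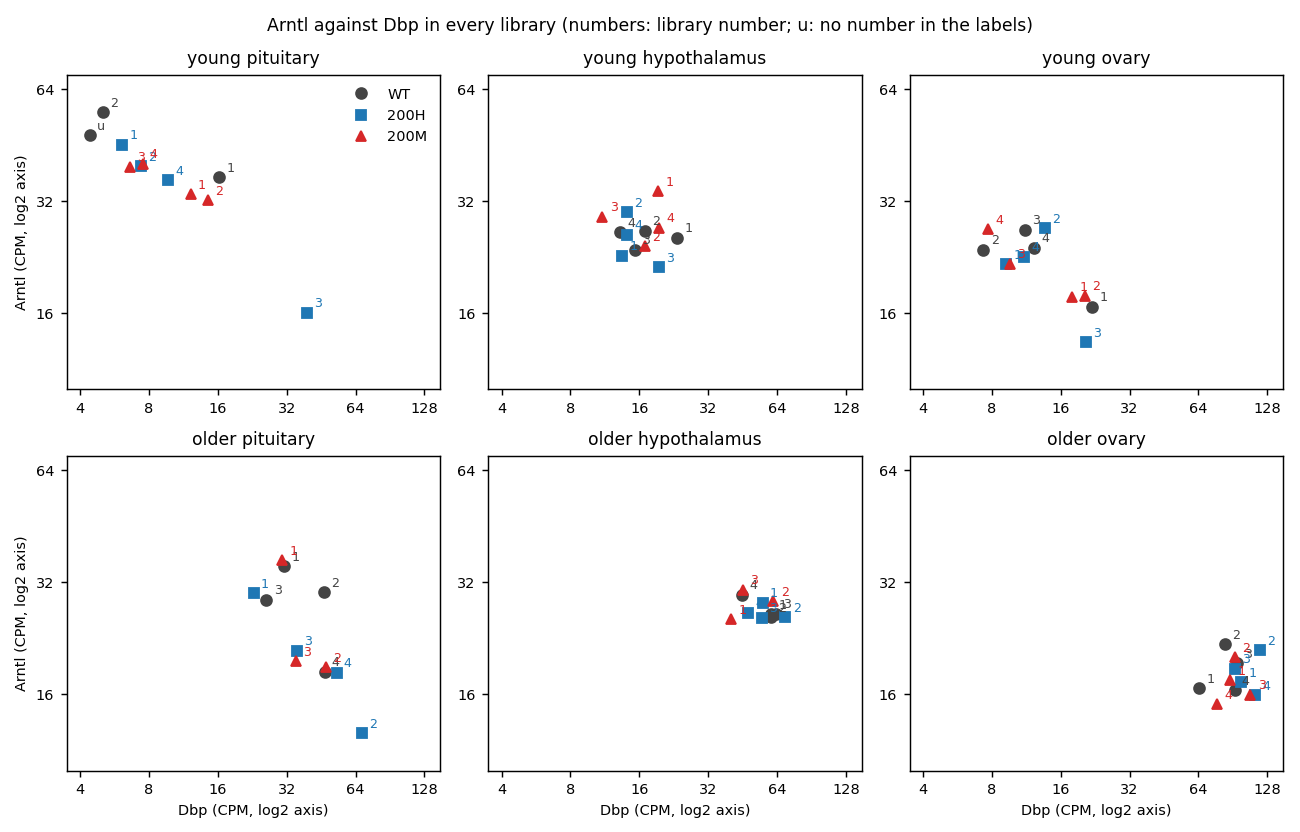
Arntl against Dbp (CPM, both on log2 axes) in each library of the 6 sets, with the library number beside each point and WT, 200H and 200M as circles, squares and triangles. The young pituitary points run from low Dbp and high Arntl to 200H replicate 3 at 39.3 CPM of Dbp and 16.1 CPM of Arntl, while the hypothalamus points of each cohort stay close together.

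The log2 ratio of Arntl to Dbp was taken as a reading of clock phase that needs no collection time. In the hypothalamus and the older ovary Arntl and Dbp did not run against each other. There the ratio is not shown to follow phase. Over all sets, in 11 of 12 comparisons of a mutant with WT the group means differed by no more than the pooled within-group SD. The exception was older 200H ovary, with a mutant minus WT difference of -0.37 against an SD of 0.24. It depended on the genes used. With Nr1d1 in place of Dbp the difference kept its direction, at -0.3 against a pooled SD of 0.2. With Npas2 in place of Arntl the direction turned, with means of -3.85 in 200H and -4.148 in WT. With Per3 in place of Dbp the means were -1.818 and -1.808. In the young pituitary the Arntl to Dbp ratio was 1.19 to 3.46 in WT (mean 2.701 ± 1.31, SD), -1.29 to 2.89 in 200H (1.49 ± 1.89; 1.91 to 2.89 without replicate 3) and 1.16 to 2.59 in 200M (1.91 ± 0.71). The ranges of WT and 200M overlapped by WT replicate 1 alone, at 1.19. WT replicates 2 and u, at 3.459 and 3.453, lay above every library of 200M and of 200H. With WT replicate 1 included, the 200M minus WT difference was -0.79 against a pooled SD of 0.99. In the young ovary the means were 0.88 ± 0.90, 0.66 ± 0.86 and 0.69 ± 0.96, and in the young hypothalamus 0.60 ± 0.36, 0.72 ± 0.41 and 0.80 ± 0.42, for WT, 200H and 200M. For the older pituitary they were -0.41 ± 0.72, -1.08 ± 1.20 and -0.63 ± 0.81, in the older hypothalamus -1.07 ± 0.31, -1.09 ± 0.25 and -0.78 ± 0.29, and in the older ovary -2.17 ± 0.27, -2.54 ± 0.22 and -2.41 ± 0.24. The ratio of Arntl to Nr1d1 gave 2 cases without overlap between 200M and WT: it was -1.43 to -1.24 in the older 200M hypothalamus against -1.80 to -1.47 in WT, and -3.21 to -2.71 in the older 200M ovary against -2.58 to -2.38 in WT. These lay in opposite directions. The ratio was described and not tested between genotypes, and the spread of 3 or 4 libraries a group is not a limit of detection. Differences above these spreads can also go unseen. Whether collection times were balanced between genotypes cannot be told from these values.

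Per1 was set beside this ratio in the young pituitary. WT replicates 1 and 2 differed in Dbp by 16.2 against 5.04 CPM and had 197.1 and 201.0 CPM of Per1, and 200H replicate 3, with the highest Dbp, had 169.0 CPM. The within-group correlation of Per1 with Dbp there was 0.369, against 0.974 for Nr1d2, 0.96 for Per3, 0.94 for Per2 and 0.928 for Nr1d1 (descriptions over 11 libraries). The Per1 difference was -0.48 with WT replicate 1 and -0.46 without it. Whether collection time has a part in it was not tested.

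Libraries of the same genotype and number were compared between tissues, and in the young mice the pituitary and ovary ran together. The labels do not say that a number marks one animal in all tissues. In the pituitary the lowest ratios of Arntl to Dbp belonged to 200H replicate 3 (-1.29), 200M replicate 2 (1.16), WT replicate 1 (1.19) and 200M replicate 1 (1.46), and in the ovary the 4 lowest were the same 4 libraries, at -0.62, -0.20, -0.40 and -0.02. After subtraction of group means, the ratio in the pituitary and in the ovary had r = 0.883 and rho = 0.818 over 10 numbered libraries (within-group permutation p = 0.00578 and 0.0181, adjusted over 6 tissue pairs 0.0347 and 0.109). Without 200H replicate 3 and WT replicate 1, r was 0.839 (p = 0.048 by permutation, adjusted 0.144). Pituitary and hypothalamus had r = 0.752 (permutation p = 0.0395, adjusted 0.11), and hypothalamus and ovary r = 0.561 (permutation p = 0.09, adjusted 0.135). In the older mice r was 0.259, 0.111 and -0.692 for the same tissue pairs, none with an adjusted permutation p under 0.11.

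**Figure D5:**
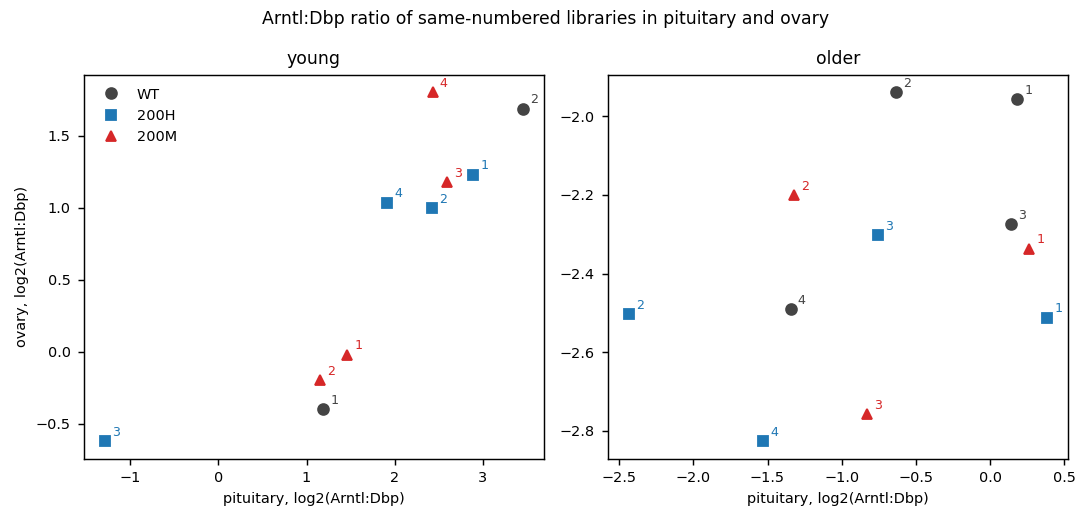
Log2 ratio of Arntl to Dbp in the ovary (vertical) against that in the pituitary (horizontal) for libraries of the same genotype and number, young on the left and older on the right, with different axis ranges. In the young panel 200H replicate 3, WT replicate 1 and 200M replicates 1 and 2 form the low end in both tissues, with ovary ratios of -0.62 to -0.02.

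Dbp and Arntl were among the more scattered genes of the pituitary in both cohorts. The within-group SD of Dbp in the young pituitary was 0.926 on the log2 scale, above 99.9% of the 18856 genes tested, whose median SD was 0.194. Nr1d1 (0.473) was above 93.6% and Arntl (0.443) above 91.3%, while Clock (0.123) and Per1 (0.129) were above 25.8% and 28.1%. Among the 10312 genes of at least 10 CPM, Clock and Per1 were above 46.2% and 50.2%, near the middle. In the older pituitary Per1 (0.534), Dbp (0.514), Per2 (0.511) and Arntl (0.472) were above 94.6% to 96.9% of 15251 genes, Clock (0.158) above 38.1%, and Nr1d1 (0.209) and Nr1d2 (0.246) above 56.8% and 66.3%.

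Of 20 further clock-related genes, more were called in the pituitary than elsewhere, as held for all genes. In young 200M against WT 6 of 20 were called (21.5% of all genes): Usp2, a deubiquitinase with clock-driven expression, went from 35.3 ± 6.54 CPM in WT (n = 3) to 65.5 ± 11.1 in 200M (n = 4, log2 difference 0.91 ± 0.14, adjusted p = 0.000228). The nuclear receptor Rorb went from 165 ± 14.4 to 233 ± 13.6 CPM (0.51 ± 0.07, adjusted p = 0.00014). Arntl2 (0.59 ± 0.20), the DBP relative Hlf (0.39 ± 0.09) and the ubiquitin ligase subunit Btrc (0.34 ± 0.07) were higher too, and the repressor Bhlhe41 (-0.55 ± 0.13) was lower. In young 200H 3 of 20 were called (12.3% of all genes), Usp2 (0.73 ± 0.20), Rorb (0.40 ± 0.09) and Btrc (0.29 ± 0.08), all higher. In older 200M 5 of 20 were called (21.4% of all genes), 3 higher and 2 lower. Rorb (0.61 ± 0.14), Hlf (0.52 ± 0.11) and Btrc (0.28 ± 0.08) were higher, and Bhlhe41 (-0.54 ± 0.11) was among the lower ones. In older 200H Arntl2 alone was called (12.2% of all genes; 0.50 ± 0.14). Outside the pituitary the calls against WT were Rora in young 200M ovary (-0.42 ± 0.10, adjusted p = 0.0494) and Bhlhe41 in older 200M ovary (1.06 ± 0.21, adjusted p = 0.0352), and there was none in the hypothalamus. Between the mutants Bhlhe40 was lower in older 200M than 200H ovary (-1.14 ± 0.21), a gene named after its values were seen. The effect on Bhlhe41 differed between older pituitary and ovary, with an interaction of -1.58 ± 0.26 (adjusted p = 0.0027). In the older libraries, without strand, 19.05% of the exon bases of Bhlhe41 are shared with an annotated gene on the other strand.

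The genes whose library-to-library course was most like that of Dbp included several of the clock. Likeness was the mean over the 6 sets of the correlation of within-group deviations, over 69 libraries and 8977 other genes of at least 5 CPM in every set, as a description. Tef, a close relative of Dbp, was first (mean r = 0.742), followed by Per2 (0.67), Por (0.654), Nr1d1 (0.623), Per3 (0.617), Cygb (0.615), Bhlhe41 (0.606), Kcnk3 (0.593), Acsf2 (0.582) and Rsad1 (0.526). Por encodes the electron donor of cytochrome P450 enzymes and Cygb a globin. Tef had r = 0.973 in the young pituitary and 0.262 in the older hypothalamus, so the likeness differed by tissue. The lowest were Reps2 (-0.526), Rngtt (-0.515), Caprin1 (-0.508), Pde7b (-0.505) and Csrnp3 (-0.501). Among the clock genes themselves Cry2 (0.487), Nr1d2 (0.451) and Per1 (0.313) also went with Dbp, Clock (-0.421) and Arntl (-0.435) against it, and Cry1 with neither (-0.042). For Per1 the most alike included Plekhh3 (0.596), the histone demethylase Kdm6b (0.57), Zc3h12c (0.567) and Klf13 (0.55), none of them a clock gene of either list.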

How the data were processed

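RNA-seq was made from the pituitary, hypothalamus and ovary of young and older females. The authors deposited raw counts per gene: reads were aligned to mm10 with STAR 2.7.1a, and counts were made with featureCounts on GENCODE M25 (young tissues by strand, older ovary without strand) or with HTSeq 0.9.1 on Ensembl 87 (older pituitary and hypothalamus). Young libraries were rRNA-depleted and paired-end, and older ones were poly(A)-selected and single-end, so levels were not compared between cohorts. The tables also hold fold changes and p-values of the authors' own comparisons, which were not used, nor were 141 further columns of sample values. Of 69 libraries, 66 stood in more than 1 table, with 0 differing values. Within groups no pair of libraries agreed within sampling noise (lowest chi-square per degree of freedom 1.87 over 99 pairs).

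Within a tissue and cohort, separate models for every genotype pair were fitted with edgeR 4.0.16 (R 4.3.3, limma 3.58.1) on the counts, with TMM factors, the filterByExpr filter, the quasi-likelihood F test and Benjamini-Hochberg adjustment over all genes tested. Adjusted p under 0.05 was a call. SE is the log2 difference divided by the root of F, and intervals are 1.96 SE. Interaction terms and WT tissue contrasts were fitted on the libraries they compare, without a term for animals. CPM used TMM factors over all libraries of a set, levels per kb used GENCODE M21 exon lengths, and correlations used log2(CPM + 0.5) less the group mean with 100000 permutations within groups. Alternatives were DESeq2 1.42.0, its size factors in edgeR, no filter, a replicate block and each library left out. The fits were tested on simulated data. Named were the 10 clock genes, other clock genes called against WT in at least 1 comparison, 2 lists of inducible genes, and the genes most alike to Dbp (10 highest, 5 lowest) and Per1 (5 highest). Some genes that this rule names are not reported here. The clock genes and all lists were chosen with earlier results of these data known.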

Additional observations from a re-analysis of the deposited data

Results flagged for a closer look

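In groups of 4 libraries, 13 of 165 groups tested held 1 library whose gap to the others passed Dixon's 95% critical value, where chance gives about 1 in 20. In the young pituitary 200H replicate 3 had 39.34 CPM of Dbp (the others 6.11 to 9.69) and 251.8 CPM of Nr1d2 (146.0 to 157.0). The library of the same genotype and number stood apart in the young hypothalamus, with 19.44 CPM of Dbp (13.43 to 14.15), and in the young ovary, with a log2 Arntl:Dbp ratio of -0.62 (0.995 to 1.23). In the young ovary WT replicate 1 had 182.7 CPM of Nr1d1 (105.9 to 117.6) and 64.63 CPM of Per3 (37.21 to 41.48). In the young hypothalamus 200M replicate 4 was low in Per1, at 74.9 CPM (96.57 to 100.2). In the older hypothalamus WT replicate 4 had 29.63 CPM of Arntl (25.81 to 26.34) and a log2 Arntl:Dbp ratio of -0.609 (-1.271 to -1.197). In the older pituitary Cry1 was 18.74 CPM in 200H replicate 1 (15.99 to 16.4) and 19.0 CPM in WT replicate 3 (23.91 to 24.1), each on the side of the other genotype. In the older ovary WT replicate 1 had 33.41 CPM of Cry1 (24.26 to 25.66) and 200M replicate 3, the library with the most fat and oviduct marker RNA, had 90.86 CPM of Cry2 (52.85 to 56.14).

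The effect of 200M differed between tissues, by an interaction term, for Per1 in the young cohort (-0.608 on the log2 scale in pituitary minus hypothalamus and -0.619 in pituitary minus ovary) and for Clock in the older cohort (0.668 in pituitary minus hypothalamus).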

How the results depend on the processing

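The counts of clock genes called kept within 1.5 times of the reported count in 28 of 29 comparisons under DESeq2, in 29 of 29 under its size factors and in 22 of 29 without a filter on low counts. DESeq2 gave 1 in place of 0 for the older 200M effect in pituitary minus ovary. Without a filter the counts were 4 for young pituitary 200M and 4 for 200H against WT, 1 for young pituitary 200M against 200H, 3 for older pituitary 200M and 4 for 200H against WT, 1 for older hypothalamus 200M against WT and 8 for young WT ovary against pituitary. The cause was not tested.

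Same-numbered libraries of different genotypes did not deviate together (r over 0.1 in 13 of 64 pairs, from -0.625 to 0.451), so the numbers were not taken as pairs. With the replicate block, which leaves out replicate u, 2 were called in young pituitary 200M and 1 in 200H (Per1), and the other 16 counts were alike. Without WT replicate 1 and 200H replicate 3, chosen after seeing the data, 2 were called in young pituitary 200H.

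Leaving out 1 library at a time gave 1 to 5 calls in young pituitary 200M, 0 to 3 in older pituitary 200M, 0 to 1 in older pituitary 200H, 1 to 3 for the young pituitary minus hypothalamus effect and 0 to 1 for the older pituitary minus ovary effect. The log2 difference of Nr1d2 between young WT pituitary and hypothalamus ran from -0.191 to 0.162, and was called at the lower end, without pituitary replicate 1.

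Of the correlations of Arntl, those with Dbp fell to -0.865 (young pituitary), -0.596 (young ovary) and -0.663 (older pituitary) and those with Nr1d1 to -0.602 and -0.532 (young pituitary and ovary) without the 2 farthest libraries, none then past the threshold. That of the ratio in young pituitary and ovary went to 0.839. In the older ovary the mutant minus WT difference in the log2 ratio was 0.66 (200M) and 0.3 (200H) with Npas2 in place of Arntl, and -0.01 (200H) with Per3 in place of Dbp.

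The percentiles of within-group spread moved in 59 of 60 cases when set among genes of at least 10 CPM. Counts over all genes were less stable where few were called: DESeq2 called 1319 in older ovary 200M where edgeR called 482, and 76 in young ovary 200H where edgeR called 1. In simulated counts 0% of genes changed by 0.5 on the log2 scale were recovered in the older ovary and 26% to 45% in the other sets, which limits what these libraries can show.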
